A study of Mus musculus with 18 samples.

Results

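The 10 genes described here, of 51912 in the count table, encode factors that rebuild chromatin and its DNA methylation behind the replication fork. They were Chaf1a and Chaf1b (the large and middle subunits of chromatin assembly factor CAF-1), Asf1a and Asf1b (the paired histone H3-H4 chaperones of the ASF1 family), Nasp (a carrier of soluble H3-H4), Ssrp1 and Supt16 (the subunits of FACT), and Hells, Uhrf1 and Dnmt1 (factors of maintenance DNA methylation). The rows were found by matching the Ensembl identifier of each row to the gene symbol, and all 10 genes were present and passed the filter on low counts. The match used no measured values, but the genes themselves were chosen with earlier results of these data known. The 18 RNA-seq libraries came from primary mouse embryonic fibroblasts (MEFs) in the C57BL/6 background at passage 1, with 3 libraries for each of 6 genotypes: Pole4+/+ or Pole4-/-, each combined with Trp53+/+, Trp53+/- or Trp53-/-. MEFs were prepared from single mid-gestation embryos of Pole4+/- Trp53+/- intercrosses after removal of the head, heart and liver, and all cultures shared 5% oxygen and 15% serum. Both null alleles were germline, so every cell of an embryo carried them. A library was taken to be one culture, the sources used here do not say which embryos were littermates, and where 2 libraries came from 1 embryo the p-values measure only the spread between libraries.

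Behind a moving fork, parental and newly made histones are placed on the daughter strands, and the methylation pattern of the parental strand is copied. ASF1 receives new H3-H4 dimers from NASP and hands them to CAF-1, which is tethered to the sliding clamp PCNA and deposits H3-H4 on the nascent DNA, while FACT loosens and rebuilds nucleosomes around H2A-H2B. UHRF1 reads hemimethylated CpG sites and recruits DNMT1, the maintenance methyltransferase, and HELLS is a nucleosome remodeller that works with CDCA7 and is needed for methylation in compact chromatin. POLE4 forms a histone-fold pair with POLE3 in DNA polymerase epsilon, and that pair also binds H3-H4. TRP53 (p53) switches on Cdkn1a, which encodes the cyclin-dependent kinase inhibitor p21.

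On mouse build GRCm38 (GENCODE annotation) all 10 are protein-coding genes. CAF-1 is encoded by Chaf1a (ENSMUSG00000002835) at chr17:56040439-56072289 and Chaf1b (ENSMUSG00000022945) at chr16:93883901-93906115, and the ASF1 pair by Asf1a (ENSMUSG00000019857) at chr10:53596757-53609225 and Asf1b (ENSMUSG00000005470) at chr8:83955507-83970197. The carrier gene is Nasp (ENSMUSG00000028693) at chr4:116601052-116627941. FACT is encoded by Ssrp1 (ENSMUSG00000027067) at chr2:85037234-85047109 and Supt16 (ENSMUSG00000035726) at chr14:52160414-52197416. The methylation factors are Hells (ENSMUSG00000025001) at chr19:38930915-38971051, Uhrf1 (ENSMUSG00000001228) at chr17:56303321-56323486 and Dnmt1 (ENSMUSG00000004099) at chr9:20907209-20959888. Nasp, Supt16 and Dnmt1 lie on the minus strand and the others on the plus strand. Exons of Chaf1a, Asf1a, Ssrp1 and Supt16 overlap a gene on the opposite strand (Ubxn6, Mcm9, P2rx3 and Rpgrip1), and whether counting used strand is not given in the sources used here, so reads of these pairs cannot be fully told apart.

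The labels and the data were compared first. Trp53 stood at 8.65 to 12.1 CPM (counts relative to the library total, scaled by TMM, the trimmed mean of M-values) in the Trp53-/- libraries, 48.4 to 59.6 in Trp53+/- and 64.2 to 96.1 in Trp53+/+. Cdkn1a was at 5.17 to 12 CPM in Trp53-/- and 149 to 363 CPM in all others. Pole4 was still counted in Pole4-/- cells, at 9.26 to 12 CPM, against 14.2 to 26.4 CPM in Pole4+/+ cells. Library totals ran from 9535971 to 35319918 counts and ribosomal RNA genes took 0.968% to 42.5% of them. The 10 genes had 55 to 7989 counts per library. Levels of Xist and of Y-linked genes marked 7 libraries as male and 11 as female. Among Pole4+/+ cells, the Trp53+/+ and Trp53-/- libraries (3 each) were female and those of Trp53+/- (3) were male, so for Trp53+/- in Pole4+/+ cells sex and genotype cannot be told apart. Each Pole4-/- genotype held both sexes. One library, Pole4+/+ Trp53-/- replicate 1, stood apart from its 2 fellows. It had 14.2 CPM of Pole4 against 25.4 and 26.4, and 2.76 CPM of the Y-linked Ddx3y, although its Trp53 (11.5 CPM) and Cdkn1a (11.8 CPM) were at the level of the other Trp53-/- libraries. Counts of genes called that rest on it, and the order of the genotypes, are given with and without it.

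The promoters of 4 of the genes are printed because 2 of them, Hells and Asf1b, had the largest fitted rises on loss of Trp53 in Pole4-/- cells, Asf1a had the smallest, and Chaf1a carries a single motif of the commonest kind searched. Each line is the RefSeq promoter of build GRCm38.p6, plus strand, 300 bases from 250 before to 50 after the annotated start. The locations are chr19:38930740-38931039 for Hells, chr8:83955444-83955743 for Asf1b, chr10:53596711-53597010 for Asf1a and chr17:56040166-56040465 for Chaf1a. Capitals mark matches, on either strand, to the E2F octamers TTTCCCGC, TTTGGCGC, TTTCGCGC and TTTGCCGC, to the cell cycle homology hexamer TTTGAA, and to CCAAT. These letters are known from promoters of cell cycle genes.
Hells: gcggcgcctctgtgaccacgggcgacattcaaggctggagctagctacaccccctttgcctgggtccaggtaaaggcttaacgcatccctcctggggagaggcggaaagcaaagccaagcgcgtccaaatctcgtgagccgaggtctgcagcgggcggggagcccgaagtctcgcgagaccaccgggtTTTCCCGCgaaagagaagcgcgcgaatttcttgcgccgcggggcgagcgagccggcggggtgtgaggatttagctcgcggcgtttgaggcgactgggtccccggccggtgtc
Asf1b: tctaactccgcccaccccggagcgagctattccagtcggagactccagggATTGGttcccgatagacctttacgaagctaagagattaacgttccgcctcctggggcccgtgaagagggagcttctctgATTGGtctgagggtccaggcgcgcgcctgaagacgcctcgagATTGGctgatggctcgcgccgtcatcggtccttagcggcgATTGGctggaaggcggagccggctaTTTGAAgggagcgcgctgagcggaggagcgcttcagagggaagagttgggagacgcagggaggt
Asf1a: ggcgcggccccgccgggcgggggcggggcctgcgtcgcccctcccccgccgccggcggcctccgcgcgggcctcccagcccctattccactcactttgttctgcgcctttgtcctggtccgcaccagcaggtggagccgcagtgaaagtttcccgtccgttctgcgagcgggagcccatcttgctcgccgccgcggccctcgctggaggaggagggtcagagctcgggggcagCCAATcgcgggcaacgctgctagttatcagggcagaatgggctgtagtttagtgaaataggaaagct
Chaf1a: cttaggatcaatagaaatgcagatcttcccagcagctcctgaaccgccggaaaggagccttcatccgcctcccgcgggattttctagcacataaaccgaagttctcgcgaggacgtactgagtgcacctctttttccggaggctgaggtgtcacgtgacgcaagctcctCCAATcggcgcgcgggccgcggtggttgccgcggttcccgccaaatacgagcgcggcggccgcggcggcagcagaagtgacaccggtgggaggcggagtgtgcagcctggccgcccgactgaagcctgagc

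Hells had a TTTCCCGC octamer 62 bases before the start, on the plus strand. Asf1b had TTTGAA 14 bases before the start and 4 CCAAT boxes, all on the minus strand. Asf1a and Chaf1a each had 1 CCAAT box and neither of the other motifs. All 10 genes matched the promoter table, with 14 promoters in all. An E2F octamer also lay in the second of 2 promoters of Ssrp1, the second of 2 of Uhrf1 and the third of 3 of Dnmt1. TTTGAA lay in promoters of Nasp, Ssrp1 and Dnmt1, and the promoters of Chaf1b and Supt16 held none of the 3 kinds. Among all 32851 promoters of this length, 2.26% held an E2F octamer, 17.9% held TTTGAA and 37.4% held CCAAT. A match is a string of letters, not a shown binding site, and no match says only that these letters are not in this window.

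In Pole4+/+ Trp53+/+ cells the FACT genes stood highest per length and the middle subunit of CAF-1 lowest. Levels are given in this one comparison as CPM per kb of annotated exon. Ssrp1 was at 51.5 ± 5.74 (SD, n = 3) and its partner Supt16 at 32.0 ± 2.77. Uhrf1 followed at 20.1 ± 3.65 and Dnmt1 at 16.2 ± 2.88, whose libraries overlapped. Nasp was at 9.12 ± 1.07. Hells (6.77 ± 0.574) and Asf1b (6.77 ± 0.813) overlapped, as did Chaf1a (4.07 ± 0.751) and Asf1a (4.04 ± 0.141), and Chaf1b was last at 2.72 ± 0.348. The other neighbours in this order did not overlap. In Pole4-/- Trp53-/- cells the first 8 places were held by the same genes in the same order, from Ssrp1 at 77.2 to Chaf1a at 7.07, and Asf1a (5.1) fell behind Chaf1b (5.13), with overlapping libraries.

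Across the 6 genotypes the mean levels of 8 of the 10 genes kept to one order, though libraries of neighbouring genotypes often overlapped. The mean level was lowest in Pole4-/- Trp53+/+ and highest in Pole4-/- Trp53-/- for 10 of 10 genes, with Pole4+/+ Trp53-/- second highest for 10 of 10. For 8 of 10 the mean rose through the whole order, with Pole4-/- cells of Trp53+/+ and then of Trp53+/- at the bottom, the 3 Pole4+/+ genotypes (by falling Trp53 copies) above them, and Pole4-/- Trp53-/- at the top. Asf1b and Ssrp1 departed from it, each by the exchange of 2 neighbouring genotypes. The top place rested on Pole4+/+ Trp53-/- replicate 1. Without it the Pole4+/+ Trp53-/- mean was above that of Pole4-/- Trp53-/- for 6 of 10 genes, among them Chaf1a (64.9 against 62.6 CPM), Asf1b (29.3 against 26.7), Uhrf1 (144 against 133) and Ssrp1 (305 against 289), and below it for 4, with Hells at 86.1 against 95.3.

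**Figure D1:**
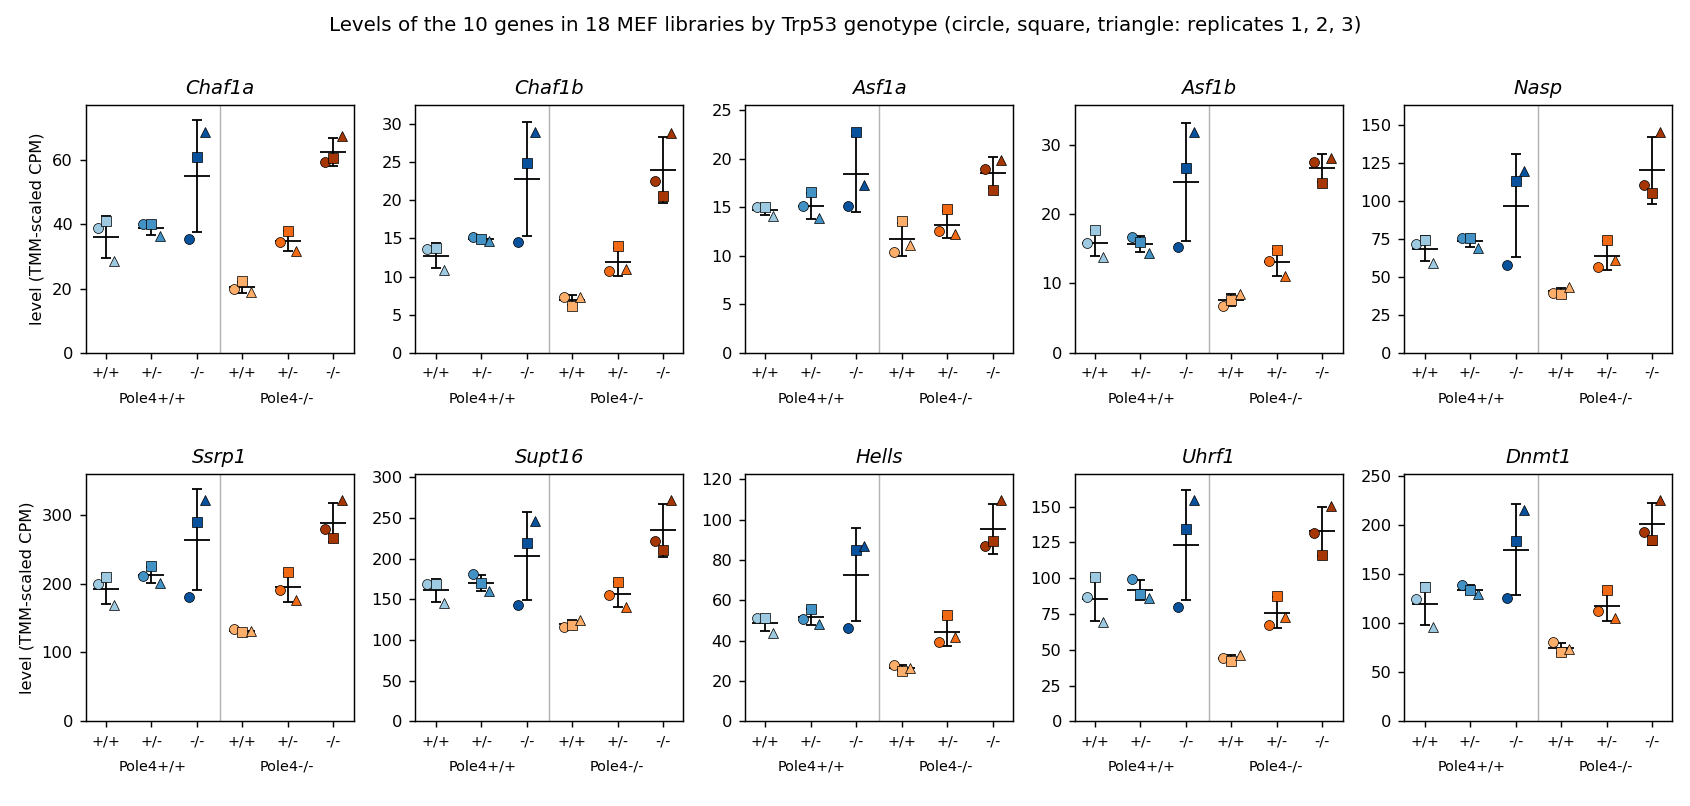
Level of each gene (TMM-scaled CPM, y axis from 0) in the 18 libraries by Trp53 genotype, with Pole4+/+ at left and Pole4-/- at right of the grey line; points are libraries and bars the mean ± SD of 3. The 3 Pole4-/- Trp53+/+ libraries are the lowest group in every panel, and Pole4+/+ Trp53-/- replicate 1 (circle) sits below its 2 fellows.

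The study tested what loss of Trp53 did to transcription in both Pole4 genotypes. Pole4-/- cells are given first, with Trp53-/- against Trp53+/+. All 10 genes rose. Fitted rises ran from 1.59-fold for Asf1a to 3.6-fold for Hells, with a median log2 fold change of 1.58 against -0.0181 over all 15710 genes tested. By edgeR's quasi-likelihood test, 10 of 10 were called higher at an adjusted p (Benjamini-Hochberg over all genes) under 0.05, from 8.66e-06 to 0.00208, where 21.8% of all genes tested were called higher. For 10 of 10 every Trp53-/- library lay above every Trp53+/+ library, which held for 28.5% of all genes in this direction. The exact permutation p was 0.1 for each, the smallest that 3 against 3 libraries allow. The count stayed at 10 without any one of the 6 libraries. Of the 10, 8 (all but Asf1a and Supt16) had a log2 fold change of at least 1 as well, against 5.82% of all genes. These are bulk cultures, so more cells in cycle and more RNA per cell cannot be told apart.

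CAF-1 is the trimer that deposits H3-H4 at the fork, and its small subunit, Rbbp4, is shared with other complexes. Chaf1a had 19.85, 22.28 and 19.01 CPM in the 3 Pole4-/- Trp53+/+ libraries, 34.62, 37.92 and 31.75 in Trp53+/- and 59.43, 60.68 and 67.69 in Trp53-/-. The 3 steps did not overlap. Its log2 fold change from Trp53+/+ to Trp53-/- was 1.62 (SE 0.192, edgeR adjusted p = 1.99e-05). Chaf1b stood at 7.265, 6.093 and 7.362 CPM, then 10.72, 14.07 and 11.03, then 22.55, 20.52 and 28.91. It also rose in 2 separate steps, by 1.79 in all (SE 0.216, edgeR adjusted p = 2.17e-05).

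The ASF1 pair moved unequally. Asf1b, the paralog tied to proliferating cells, had 6.703, 7.595 and 8.432 CPM in Trp53+/+, 13.26, 14.91 and 11.07 in Trp53+/- and 27.58, 24.45 and 28.11 in Trp53-/-. Its log2 rise of 1.83 (SE 0.211, edgeR adjusted p = 1.68e-05) was close to that of Hells. Asf1a, which also serves replication-independent deposition with HIRA, had 10.34, 13.60 and 11.11 CPM, then 12.57, 14.77 and 12.26, then 18.92, 16.81 and 19.89. Its Trp53+/+ and Trp53+/- libraries overlapped, and only the Trp53-/- libraries were clear of both. The rise to Trp53-/- was 0.67 (SE 0.147, edgeR adjusted p = 0.00208), the smallest of the 10.

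Nasp, which protects the soluble pool of H3-H4, had 39.62, 38.64 and 43.10 CPM in Pole4-/- Trp53+/+, 56.44, 74.43 and 60.83 in Trp53+/- and 110.3, 105.0 and 145.6 in Trp53-/-. The 3 genotypes were fully separate, with a log2 change of 1.57 end to end (SE 0.213, edgeR adjusted p = 5.97e-05).

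FACT, which also serves transcription, had the smallest fitted rises after Asf1a. Ssrp1 had 133.8, 129.2 and 131.3 CPM in Trp53+/+, 191.3, 217.0 and 175.7 in Trp53+/- and 279.1, 265.8 and 320.6 in Trp53-/-. The 3 genotypes were separate. Supt16 had 116.1, 118.3 and 125.1 CPM, then 155.9, 172.0 and 141.2, then 221.7, 211.0 and 271.8. Again no libraries overlapped. The log2 changes were 1.13 for Ssrp1 (SE 0.161, edgeR adjusted p = 8.05e-05) and 0.97 for Supt16 (SE 0.157, adjusted p = 0.000219).

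Among the maintenance methylation factors Hells led. It had 27.86, 25.12 and 26.37 CPM in Pole4-/- Trp53+/+, 39.16, 52.69 and 41.63 in Trp53+/- and 86.78, 89.58 and 109.6 in Trp53-/-. Its log2 rise of 1.85 (SE 0.193, 95% confidence interval 1.44 to 2.26, edgeR adjusted p = 8.66e-06) was the largest fitted value of the 10. Uhrf1 had 44.26, 42.23 and 46.31 CPM, then 67.54, 87.89 and 72.59, then 131.6, 116.4 and 150.6. Dnmt1 had 81.03, 71.03 and 73.48 CPM, then 112.6, 133.8 and 105.4, then 193.3, 185.4 and 225.4. For both genes the 3 genotypes were separate from each other. The log2 changes were 1.59 for Uhrf1 (SE 0.197, edgeR adjusted p = 2.81e-05) and 1.42 for Dnmt1 (SE 0.17, adjusted p = 2.11e-05).

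Between Pole4-/- Trp53+/- and Pole4-/- Trp53+/+ cells the question was whether loss of 1 Trp53 copy already moved these genes. In all, 6 of 10 by edgeR's test at an adjusted p under 0.05, were higher in Trp53+/-, where 2.96% of all genes were called higher. They were Chaf1a (0.77, SE 0.189, adjusted p = 0.0354), Chaf1b (0.79), Asf1b (0.80), Hells (0.75), Uhrf1 (0.78) and Dnmt1 (0.64), on the log2 scale. Asf1a was at 0.18 (adjusted p = 0.458), Supt16 at 0.38 (0.139), Nasp at 0.66 (0.0739) and Ssrp1 at 0.57 (0.0513), none of which passed. Libraries did not overlap for 9 of 10, all but Asf1a, against 21.4% of all genes in this direction. Epithelium markers also summed to separate ranges (10.5 to 16.7 CPM in Trp53+/+ and 23.2 to 31.7 in Trp53+/-), although no marker was called, and their part was not tested. Pole4-/- Trp53+/- replicate 2 was the highest of its genotype for 10 of 10 genes. The calls did not hold under all settings: with the Xist level as a covariate for embryo sex 0 of 10 passed (0.299% of all genes then called higher), and 0 passed without Pole4-/- Trp53+/- replicate 2 or without any one of the 3 Trp53+/+ libraries. The fitted changes moved less, with a median of 0.704 with all libraries, 0.649 with the Xist covariate and 0.576 to 0.768 without one library. DESeq2 called 8, with 6.52% of all genes called higher, and voom called 9, with 12.7%. Without Trp53+/- replicate 1, Hells and Uhrf1 (2 of 10) passed, and without replicate 3, 5 passed. Shares of all genes called are not given for the fits without one library, so these counts cannot be set against them.

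From Pole4-/- Trp53+/- to Pole4-/- Trp53-/- all 10 genes rose again. By edgeR 10 of 10 were called higher, with 6.58% of all genes so called, and the log2 changes ran from 0.49 (Asf1a, adjusted p = 0.0348) to 1.1 (Hells, adjusted p = 0.00209), with a median of 0.827. Asf1b rose by 1.03 and Chaf1b by 1.01, and Ssrp1 by 0.57. For 10 of 10 the libraries did not overlap, against 19.3% of all genes. Loss of the second Trp53 copy thus carried Asf1a past the threshold where loss of the first had not. The difference between the steps was not tested. The count fell to 5 (Chaf1a, Chaf1b, Asf1b, Hells and Dnmt1) without Trp53+/- replicate 1, without Trp53+/- replicate 3 or without Trp53-/- replicate 3, and to 8 without Trp53-/- replicate 1. The median change was 0.731 to 0.919 without one library. Shares of all genes called in those fits are not given here, so the fall cannot be read as particular to the 10 genes. Scaled by library totals alone, under which the median of all genes was at -0.333, the count was 2, with 0.554% of all genes called higher. Beside these rises the fibroblast markers Col1a1 and Col1a2 and the muscle marker Des were called lower and the epithelium marker Krt8 higher, and fibroblast markers summed to 15700 to 19700 CPM in Trp53+/- and 10300 to 12700 in Trp53-/-. Neuron markers summed to 27.5 to 45 CPM and 58.4 to 62.3, and skeletal muscle markers to 47.3 to 81 and 26.7 to 34.1, in the same order. Ribosomal RNA genes took 3.75% to 15.5% of counts in Trp53+/- and 24.7% to 30% in Trp53-/- libraries, and with them left out before scaling 10 of 10 genes were still called higher. The part of the markers was not tested. These Trp53 comparisons share libraries with each other and are not independent.

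In Pole4+/+ cells loss of Trp53 gave smaller fitted changes, and 1 library decided how many genes passed. Chaf1a had 38.82, 40.90 and 28.48 CPM in Pole4+/+ Trp53+/+ and 35.59, 60.87 and 68.88 in Trp53-/-. Asf1b had 15.90, 17.68 and 13.88 CPM, then 15.34, 26.73 and 31.93. Hells had 51.24, 51.13 and 44.02 CPM, then 46.20, 85.20 and 87.07. In each of these the first Trp53-/- library was at the level of Trp53+/+ and the other two were above every Trp53+/+ library. That held in the same form for Nasp (71.83, 74.45 and 59.33 against 58.05, 113.1 and 119.6 CPM), Uhrf1 (86.67, 100.6 and 69.54 against 80.26, 134.5 and 154.4) and Dnmt1 (125.1, 137.2 and 95.88 against 125.4, 184.5 and 216.0). The FACT genes followed, with 199.7, 209.4 and 168.3 against 181.2, 289.4 and 320.7 CPM for Ssrp1 and 169.3, 169.1 and 145.0 against 142.9, 219.8 and 246.6 for Supt16. Only Chaf1b (13.66, 13.70 and 10.86 against 14.51, 24.87 and 29.02 CPM) and Asf1a (15.03, 14.99 and 14.12 against 15.12, 22.77 and 17.30) had no overlap, 2 of 10, with 8.24% of all genes in that state.

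By edgeR's test with all libraries 1 of 10 genes, Chaf1b, was called higher in Pole4+/+ Trp53-/- (log2 0.83, SE 0.203, adjusted p = 0.0294), where 2.23% of all genes were. Adjusted p for the other genes ran from 0.0706 (Dnmt1, 0.55) to 0.256 (Supt16, 0.33), and the median change of the 10 was 0.536. That median was 0.729 without replicate 1 of Trp53-/- and 0.353 without replicate 3. Without replicate 1 of Trp53-/-, 10 of 10 were called higher, against 8.58% of all genes. Chaf1b then changed by 1.04 (edgeR adjusted p = 0.000574), Asf1b by 0.86, Chaf1a by 0.81, Hells by 0.79 and Asf1a by 0.42 (adjusted p = 0.0425). Without any one of the other 5 libraries 0 of 10 passed. With all libraries DESeq2 called 5, with 4.35% of all genes called higher, and limma voom with quality weights, which lets a library that stands apart count for less, called 10, with 11.1%. The same library stood apart in cell type markers: the sum of 10 fibroblast markers was 18600 CPM in replicate 1 and 13500 and 13200 in its fellows, that of neuron markers 20.4 against 52.2 and 43.6, and that of epithelium markers 7.22 against 27.8 and 32.5. Between genotypes skeletal muscle markers summed to 42.5 to 71.6 CPM in Trp53+/+ and 25.8 to 27.2 in Trp53-/-, with Des called lower, and the fibroblast marker Pdgfra was called higher. The part of these in the result was not tested.

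Pole4+/+ Trp53+/- cells were at the level of Pole4+/+ Trp53+/+ for most genes. Chaf1a had 40.10, 40.27 and 36.27 CPM, Asf1b 16.70, 15.97 and 14.46, Nasp 75.32, 75.35 and 69.18, Ssrp1 211.7, 225.1 and 201.2, and Dnmt1 138.9, 134.0 and 130.1. Each of these overlapped the Trp53+/+ libraries given above. Hells (51.01, 55.98 and 48.51 CPM), Uhrf1 (99.64, 89.19 and 86.39), Supt16 (180.8, 170.0 and 160.9) and Asf1a (15.08, 16.51 and 13.84) overlapped too, and Chaf1b (15.24, 14.98 and 14.72) alone lay just above, 1 of 10 as for 10.2% of all genes. Against Trp53+/+, 0 of 10 passed by edgeR, by DESeq2 or by limma voom, with 0.496% of all genes called higher by edgeR. An unadjusted edgeR p under 0.05 was reached by 0 of 10, and by 1610 of all 15710 genes in either direction. Log2 changes ran from -0.01 (Asf1b) to 0.23 (Chaf1b).

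From Pole4+/+ Trp53+/- to Trp53-/- the log2 changes ran from 0.25 (Supt16) to 0.64 (Asf1b), and 0 of 10 passed by edgeR or DESeq2, with 0.07% of all genes called higher by edgeR. An unadjusted edgeR p under 0.05 was reached by 6 of 10, and by 1462 of all 15710 genes in either direction. By limma voom 10 of 10 passed, with 4.42% of all genes called higher. Without Trp53-/- replicate 1, 9 of 10, all but Asf1a, passed by edgeR, with 5.03% of all genes. The median change of the 10 was 0.41, and it was 0.635 without replicate 1 and 0.256 without replicate 3. Sex and genotype cannot be told apart here either.

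The next comparison was loss of Pole4 with Trp53 intact. All 10 genes were lower in Pole4-/- Trp53+/+ than in Pole4+/+ Trp53+/+, with no overlap of libraries for 10 of 10, against 21.7% of all genes in this direction. Asf1b was 2.11-fold lower, at 6.703 to 8.432 CPM against 13.88 to 17.68. Its log2 change was -1.08 (SE 0.21, edgeR adjusted p = 0.0203). Uhrf1 changed by -0.95 (SE 0.195, adjusted p = 0.022), Chaf1b by -0.89 (0.0357), Hells by -0.88 (0.0249), Chaf1a by -0.82 (0.0309) and Dnmt1 by -0.67 (0.0401). These 6 of 10 were called lower, where 2.7% of all genes were. Nasp at -0.76 (adjusted p = 0.0531), Ssrp1 at -0.55 (0.0603), Supt16 at -0.43 (0.108) and Asf1a at -0.34 (0.163) did not pass. The median of the 10 was -0.793.

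These calls rested on few libraries. Pole4+/+ Trp53+/+ replicate 3 was the lowest of its genotype for 10 of 10 genes, and without it 8 were called lower (all but Asf1a and Supt16), with 3.7% of all genes so called. Without any one of the other 5 libraries 0 passed. The groups also differed in sex, with 3 female libraries against 1 female and 2 male, and with the Xist covariate 0 of 10 passed, as 0.00637% of all genes did. The changes themselves were nearly as large with it, with a median of -0.73. By limma voom 10 of 10 were called lower, where 17.4% of all genes were, and by DESeq2 8, where 6.52% were. No single cell type marker tested was called in this comparison, although summed levels separated the groups for fibroblast markers (12100 to 16400 CPM in Pole4+/+ and 16800 to 21900 in Pole4-/-) and epithelium markers (20.8 to 34.4 and 10.5 to 16.7). Their part in the result was not tested.

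With 1 or no copy of Trp53 the fitted changes between Pole4 genotypes were smaller, though the interaction tests given further on did not pass by edgeR. All 3 Pole4+/+ Trp53+/- libraries were male, against 1 of 3 in Pole4-/- Trp53+/-. In Trp53+/- cells log2 changes ran from -0.13 (Ssrp1 and Supt16) to -0.33 (Chaf1b), with a median of -0.2. In this comparison 0 of 10 passed by edgeR, DESeq2 or voom, and 0.00637% of all genes were called lower. An unadjusted edgeR p under 0.05 was reached by 0 of 10, and by 866 of all 15710 genes in either direction. Only Chaf1b had no overlap, at 10.72 to 14.07 CPM against 14.72 to 15.24, 1 of 10 where 6.83% of all genes were in that state. In Trp53-/- cells the fitted changes were all at or above 0, from 0.01 for Asf1a (95% interval -0.292 to 0.312) to 0.39 for Hells (-0.000413 to 0.783). Here too 0 of 10 passed by any of the 3 tools, and 0.00637% of all genes were called higher. An unadjusted edgeR p under 0.05 was reached by 0 of 10, and by 1636 of all 15710 genes in either direction. Chaf1a was at 0.19, with an interval of -0.201 to 0.577. The sign of 9 of these 10 turned with the scaling: with library totals alone, under which the median of all genes was itself at -0.435 and not -0.017, all but Hells were below 0. It turned with 1 library too. Without Pole4+/+ Trp53-/- replicate 1 Chaf1a, Chaf1b, Asf1a, Asf1b, Ssrp1 and Uhrf1 were below 0, and the median of the 10 went from 0.159 to -0.0589, within a range of -0.16 to 0.152.

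**Figure D2:**
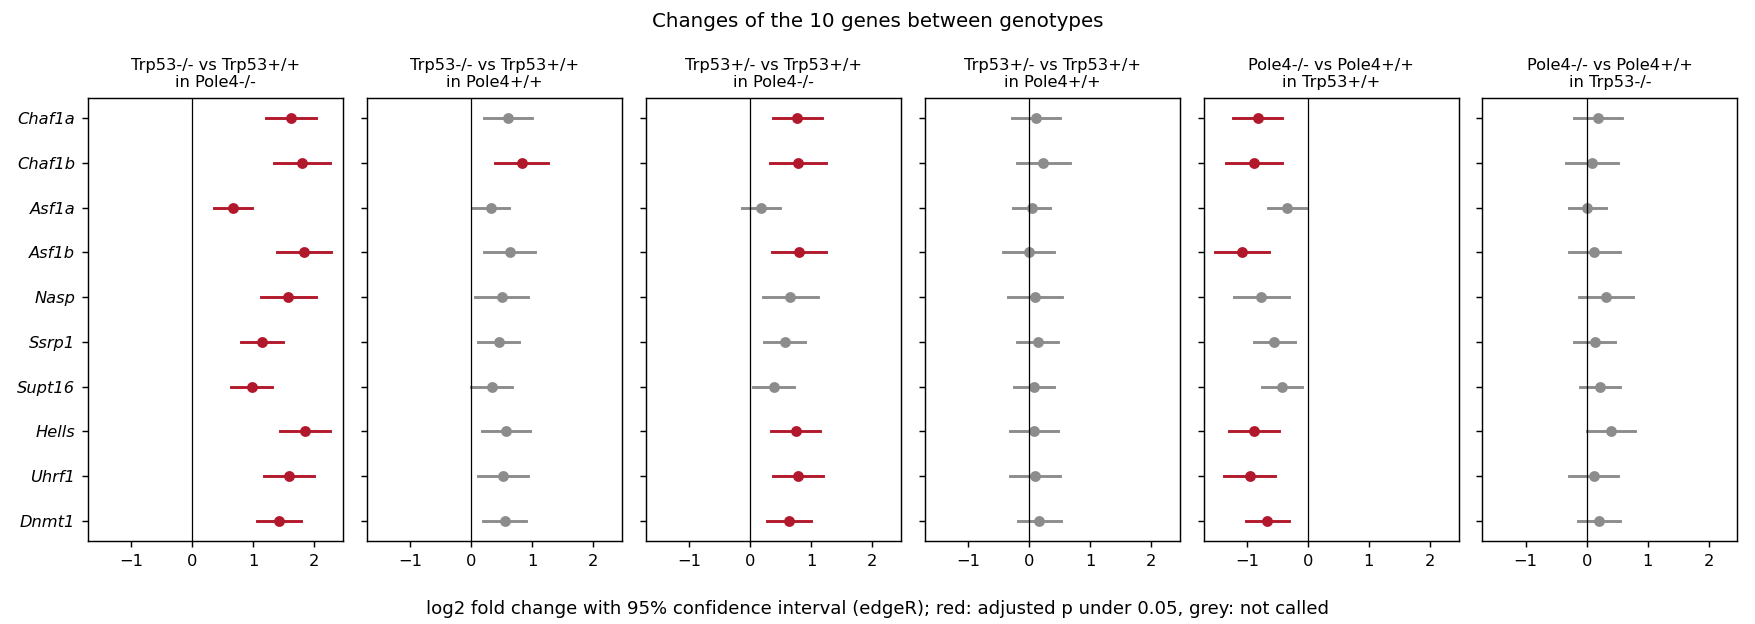
Log2 fold change (x axis) of each gene (y axis) with its 95% confidence interval in 6 comparisons, by edgeR; red points have an adjusted p under 0.05 and grey points do not. All 10 are red for Trp53-/- against Trp53+/+ in Pole4-/- cells, and 1 is red for the same comparison in Pole4+/+ cells.

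Whether the Trp53 effect differed between Pole4-/- and Pole4+/+ cells was tested as an interaction in the same fit. The difference of the log2 changes was above 0 for all 10 genes, from 0.35 (Asf1a, SE 0.205, adjusted p = 0.275) to 1.27 (Hells, SE 0.265, edgeR adjusted p = 0.0502), with a median of 0.989. Asf1b stood at 1.20 (adjusted p = 0.0522), Nasp at 1.08, Uhrf1 at 1.07, Chaf1a at 1.01, Chaf1b at 0.97 and Dnmt1 at 0.87. By edgeR 0 of 10 passed, with 0.178% of all genes called higher. An unadjusted edgeR p under 0.05 was reached by 9 of 10, and by 4453 of all 15710 genes in either direction. DESeq2 called 9 of 10, where it called 5.82% of all genes higher, and voom called 9, where it called 4.73%. Asf1a was the gene that neither called. The Pole4+/+ side of this test holds the library that stood apart. Without it, edgeR called 5 of 10 (Chaf1a, Asf1b, Nasp, Hells and Uhrf1), with 0.871% of all genes, and it called 7 without replicate 2 of the same genotype (6.16% of all genes), 9 without replicate 3 (10.1%) and 5 without Pole4+/+ Trp53+/+ replicate 3 (1.67%). For 1 lost copy of Trp53 the interaction ran from 0.14 (Asf1a) to 0.81 (Asf1b), and 0 of 10 passed by edgeR or DESeq2, with 0.0% of all genes called higher by edgeR. An unadjusted edgeR p under 0.05 was reached by 4 of 10, and by 1591 of all 15710 genes in either direction. Voom called 5 of 10 there, with 2.81% of all genes.

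Partner genes mostly moved together, and the ASF1 pair was where the balance shifted most. Ratios were taken per kb of exon on the log2 scale. The Asf1b to Asf1a ratio was 0.0199, -0.196 and 0.244 in the 3 Pole4-/- Trp53+/+ libraries, 0.715, 0.651 and 0.491 in Trp53+/-, and 1.18, 1.18 and 1.14 in Trp53-/-. The 3 genotypes did not overlap. From Trp53+/+ to Trp53-/- the ratio rose by 1.14 (exact permutation p = 0.1, the smallest possible; 0.2 after adjustment over the 10 ratios compared). In Pole4+/+ cells it was 0.719, 0.874 and 0.614 with Trp53 and 0.659, 0.868 and 1.52 without it, a difference of 0.279 with overlapping libraries (exact permutation p = 0.5).

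The Hells to Dnmt1 ratio was -1.5, -1.46 and -1.44 in Pole4-/- Trp53+/+ and -1.12, -1.01 and -1.01 in Pole4-/- Trp53-/-. It rose by 0.422 without overlap (exact permutation p = 0.1), while in Pole4+/+ cells the difference was -0.011 (exact permutation p = 0.8). In the FACT pair Supt16 to Ssrp1 differed by -0.168 in Pole4-/- and -0.119 in Pole4+/+ cells, both without overlap. Chaf1b to Chaf1a differed by 0.157 in Pole4-/-, with overlap, and by 0.211 in Pole4+/+, without. Uhrf1 to Dnmt1 differed by 0.159 and -0.0479, both with overlap. Of the 10 ratio comparisons 5 reached the smallest exact p of 0.1, which adjusted to 0.2, so the adjusted values did not pass 0.05, nor could they at this size.

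**Figure D3:**
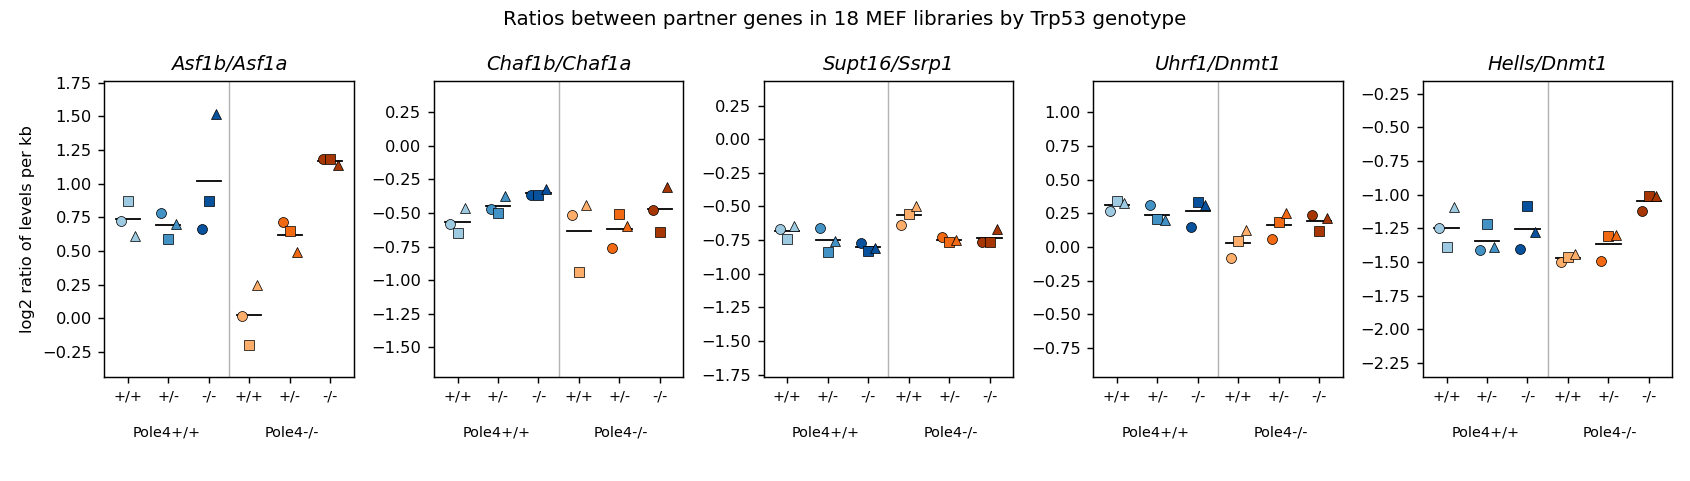
Log2 ratio of levels per kb (y axis, the same span in each panel) between partner genes in the 18 libraries by Trp53 genotype; points are libraries (circle, square, triangle for replicates 1, 2, 3) and lines the mean of 3. Asf1b to Asf1a rises in 2 steps in Pole4-/- cells, from a mean of 0.0227 to 0.619 and 1.16, and Supt16 to Ssrp1 stays between -0.836 and -0.5 in all 18 libraries.

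The level of one of these genes in a library went with that of the others. Over the 18 libraries the Pearson correlation of log2 CPM was 0.962 to 0.99 (median 0.979) for the 36 pairs without Asf1a. Within genotypes, after each genotype's mean was taken off, it was 0.836 to 0.972 (median 0.932) for those pairs. Asf1a was the loosest, at 0.853 to 0.891 with the other 9 genes and 0.441 to 0.614 within genotypes. Libraries of a genotype share its alleles, and all genes of a library share its depth and scaling, so these are descriptions without a test.

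Over all genes tested, those nearest in pattern were taken by Pearson correlation over the 18 libraries. The nearest to Uhrf1 were Cdc6, an origin licensing factor (0.995, and 0.978 within genotypes), and Lmnb1 (0.993). Mybl2 and Mcm7 were nearest to Ssrp1 (both 0.994), Exo1 and Melk to Dnmt1 (0.994 and 0.991), Spdl1 and Nup54 to Hells (both 0.993), Mcm3 and Mcm5 to Chaf1a (0.992 and 0.991), Mcm4 and Iqgap3 to Asf1b (0.989 and 0.987) and Tmpo and Pbk to Chaf1b (both 0.991). Nasp was nearest to Scaf11 (0.992) and then to Hells (0.99), and Supt16 to Cse1l and Gmps (both 0.992). Asf1a had no neighbour so close. Mrps22, a mitochondrial ribosomal protein gene, came first at 0.936, and Dnph1 next at 0.935.

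The mean of the 10 genes moved with that of 12 proliferation markers. On the log2 scale relative to Pole4+/+ Trp53+/+, the 3 Pole4-/- Trp53+/+ libraries were at -0.741, -0.739 and -0.698 for the 10 genes and -0.919, -0.832 and -0.856 for the markers. The Pole4-/- Trp53+/- libraries were at -0.178, 0.0921 and -0.222 beside -0.153, 0.151 and -0.36. The Pole4-/- Trp53-/- libraries were at 0.661, 0.576 and 0.89 beside 0.74, 0.75 and 1.01. Each library thus had nearly the same place on both. Pole4+/+ Trp53-/- replicate 1 was at -0.0352 beside -0.05, and its fellows at 0.702 and 0.813 beside 0.759 and 0.935. The part of the share of cycling cells in the levels of the 10 genes was not tested.

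**Figure D4:**
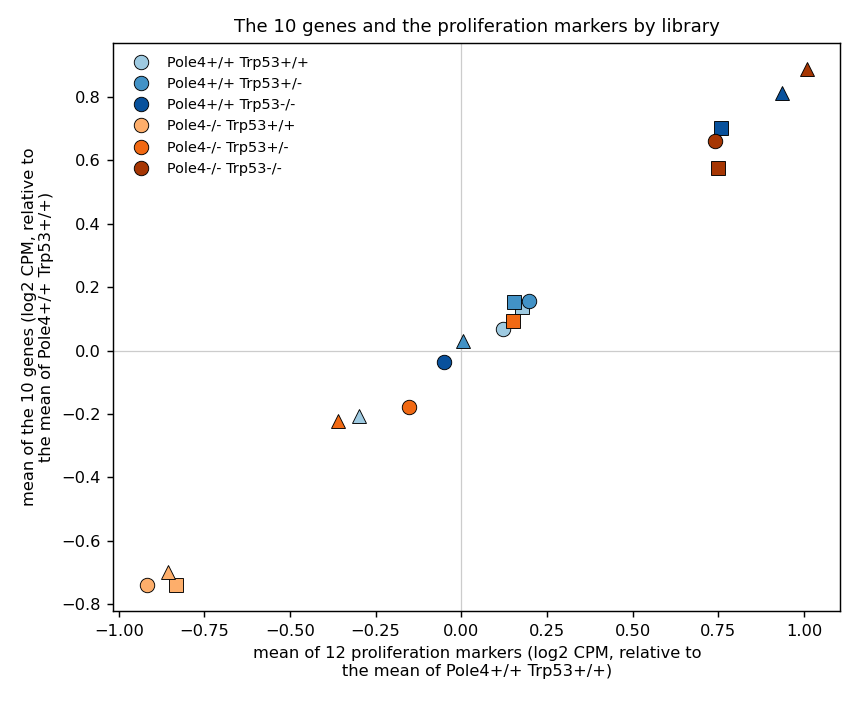
Mean log2 CPM of the 10 genes (y axis) against that of 12 proliferation markers (x axis), both relative to the mean of Pole4+/+ Trp53+/+, with 1 point for each of the 18 libraries, coloured by genotype. The 3 Pole4-/- Trp53+/+ libraries lie lowest, at -0.741 to -0.698 on the y axis, and the highest point is Pole4-/- Trp53-/- replicate 3 at 0.89.

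Other genes of the pathway were followed in 4 lists. Among 12 replication-coupled partners 8 were called higher and 1 lower by edgeR in Pole4-/- Trp53-/- against Pole4-/- Trp53+/+ cells, with a median log2 change of 0.75, where 21.8% of all genes tested were called higher. Hat1, which acetylates new histone H4, changed by 1.59 (adjusted p = 9.54e-06), Mcm2, the helicase subunit that also binds H3-H4, by 1.55 (2.83e-05), and Mms22l by 1.40 (2.12e-05). The partner of Mms22l, Tonsl, a reader of new histones, was at -0.03 and did not pass, and the 1 gene called lower was Spty2d1 (-0.39, adjusted p = 0.00446). Among 12 replication-independent H3.3 and H2A-H2B chaperones 6 were called higher and 0 lower, with a median of 0.409. They included Set (1.34, edgeR adjusted p = 8.61e-05), Anp32e, which removes H2A.Z (1.25, 3.05e-05), and Nap1l1 (0.90, 0.00101). The H3.3 chaperone gene Hira was called higher too (0.73, edgeR adjusted p = 0.00103), while the H3.3 chaperone pair Daxx (0.30) and Atrx (0.01) did not pass.

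Of 18 tested DNA methylation and demethylation genes 10 were called higher and 1 lower, with a median of 0.422, where 21.8% of all genes were called higher and 20.8% lower. The HELLS partner Cdca7 changed by 1.92 (edgeR adjusted p = 1.49e-05), its paralog Cdca7l by 1.85 (1.25e-05) and Pclaf, a PCNA-associated factor, by 1.72 (2.57e-05). The de novo methyltransferase gene Dnmt3a was at -0.05 and the demethylase genes Tet1 and Tet2 at -0.53 and -0.67 (edgeR adjusted p = 0.0513 for Tet2), none of them called. Tet3 was at 0.14 and also uncalled. In the same list the other de novo methyltransferase gene, Dnmt3b (0.81, edgeR adjusted p = 0.026), and the demethylation gene Tdg (1.04, 0.000275) were called higher. The 1 gene called lower was Zbtb24 (-0.52, adjusted p = 0.00714), a zinc-finger factor known to act on Cdca7. All 12 proliferation markers were called higher, with a median of 1.72 beside the 1.58 of the 10 genes, and Top2a (1.68, edgeR adjusted p = 2.71e-06), Bub1 (1.81) and Ccnb1 (1.79) had the lowest p.

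In Pole4+/+ cells 0 of 12, 0 of 12 and 0 of 18 genes of the first 3 lists were called on loss of Trp53, and 2 of 12 proliferation markers, Top2a (0.58, edgeR adjusted p = 0.035) and Ccna2 (0.76, 0.0481). Without Trp53-/- replicate 1 the counts called higher were 7, 3, 6 and 12, with 8.58% of all genes called higher. On loss of Pole4 with Trp53 intact, 3 of 12 partners (Mcm2 -0.98, Hat1 -0.80 and Mms22l -0.73) and 1 of 12 replication-independent chaperones (Anp32e, -0.58, edgeR adjusted p = 0.0496) were called lower. So were 4 of 18 methylation genes, Cdca7 (-1.12), Cdca7l (-0.94), Pclaf (-0.84) and Lig1 (-0.82), and 11 of 12 proliferation markers. Of all genes, 2.7% were called lower. With the Xist covariate none of these calls held, as for the 10 genes themselves, while the list medians stayed near their values (-0.353 beside -0.38 for the partners, -0.142 beside -0.165 for the methylation genes and -0.886 beside -0.879 for the markers).

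**Figure D5:**
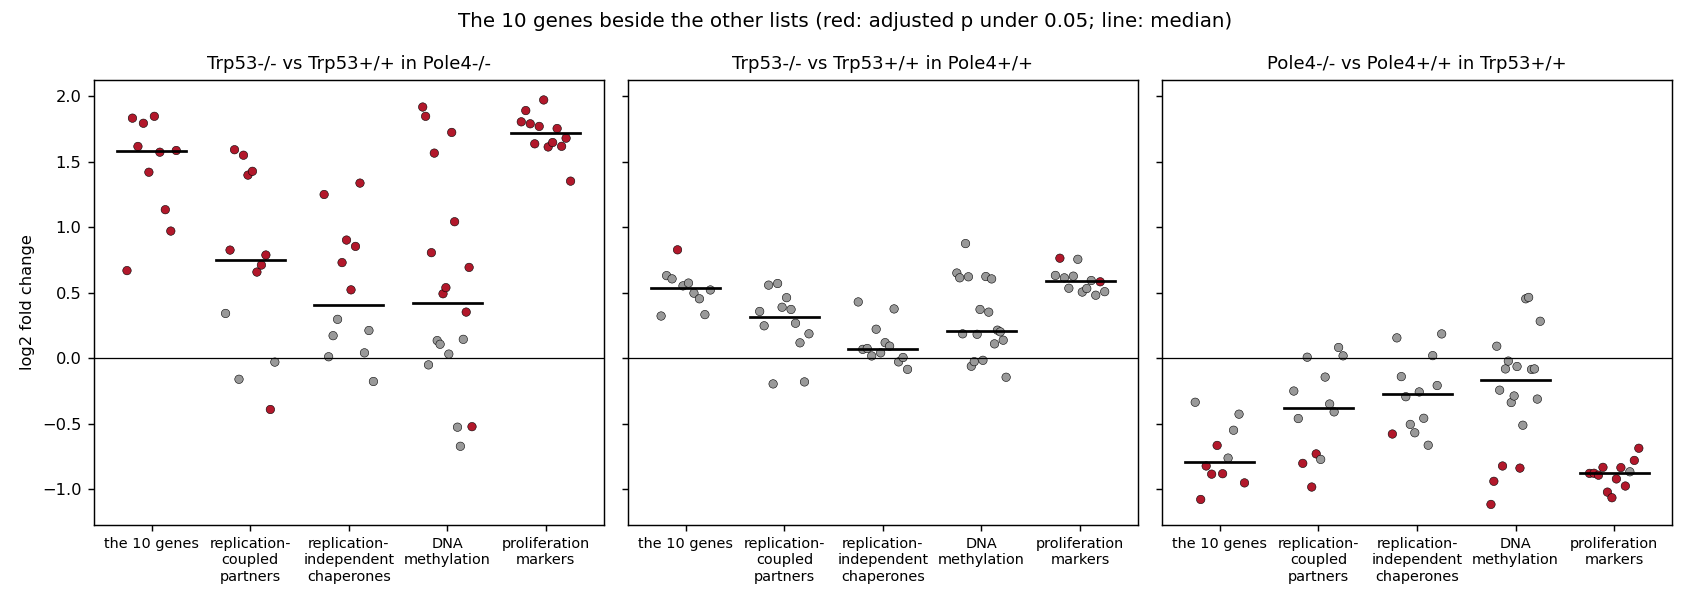
Log2 fold change (y axis) of each gene of the 10 and of the 4 other lists (x axis) in 3 comparisons; red points have an edgeR adjusted p under 0.05, grey points do not, and lines are medians. For Trp53-/- against Trp53+/+ in Pole4-/- cells the 10 genes have a median of 1.58 and the proliferation markers 1.72, above 0.75, 0.409 and 0.422 for the other 3 lists.

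Markers of other cell types also moved with loss of Trp53 in Pole4-/- cells. The sum of 10 fibroblast markers fell from a range of 16800 to 21900 CPM in Trp53+/+ to 10300 to 12700 in Trp53-/-, with 1 marker called higher (Pdgfra) and 4 lower (Col1a1, Col1a2, Col3a1 and Pdgfrb). Neuron markers summed to 25.0 to 36.6 CPM against 58.4 to 62.3, with 2 of 3 tested called higher and Snap25 at 3 counts or fewer in every library. Epithelium markers summed to 10.5 to 16.7 against 22 to 42, with 2 of 3 tested called higher. Skeletal muscle markers summed to 55.0 to 70.9 against 26.7 to 34.1, with 1 of 6 called lower (Des). No macrophage or endothelium marker tested was called, and the erythroid genes Hba-a1, Hbb-bs and Alas2 were at 3 counts or fewer in every library. The part of these in the levels of the 10 genes was not tested. With the ribosomal RNA genes, which took 24.7% to 30% of counts in Pole4-/- Trp53-/- libraries, left out before scaling, 10 of 10 genes were still called higher in this comparison.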

How the data were processed

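Total RNA from 18 MEF cultures was amplified and sequenced as paired-end reads. The authors mapped reads with STAR 2.5.2 to GRCm38 and deposited RSEM 1.3.0 expected counts per gene (estimated counts, not normalized), per the labels and the methods. The expected counts of Uhrf1 were not whole in 8 of 18 libraries. Tool versions are as the submitters' processing notes give them, and these also name DESeq2 1.10.1, whose results were not used.

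Expected counts were rounded. Genes passing edgeR's expression filter (15710) were scaled by TMM and fitted in R 4.3.3 with edgeR 4.0.16 (robust quasi-likelihood, 1 mean per genotype over 18 libraries, 12 residual degrees of freedom), and genes with a Benjamini-Hochberg adjusted p under 0.05 were called. SE is the log2 fold change divided by the root of F. CPM correlations and ratios used log2 CPM with a prior count of 2. Exact permutation tests were two-sided. The script was tested on simulated data. Library totals had a median of 22781543. The 10 genes and all lists were chosen with earlier results of these data known. The named genes of the other lists were the 3 called genes with the lowest adjusted p. List genes called lower or left uncalled, those named for loss of Pole4, and Hira, Dnmt3b and Tdg were chosen after their values were seen. The nearest 2 genes by Pearson correlation were named for each of the 10. Alternatives were DESeq2 1.42.0, limma 3.58.1 voom with quality weights, other scalings and filters, a replicate block, an Xist covariate, stricter thresholds and leaving out each library. Protein sequences were not used here. Promoters are RefSeq's (GRCm38.p6).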

Additional observations from a re-analysis of the deposited data

Results flagged for a closer look

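Top2a, the DNA topoisomerase of dividing cells, is 1 of the 12 proliferation markers set beside the 10 genes. By edgeR's test of the Trp53-/- interaction it alone of those lists and of the 10 was called, with a log2 difference of 1.1 (SE 0.211, adjusted p = 0.0486). Hells (1.27, edgeR adjusted p = 0.0502) and Asf1b (1.20, 0.0522) had larger fitted differences and narrowly missed the threshold, so the call does not set Top2a apart. Of the 12 markers 5 were called for this interaction without Pole4+/+ Trp53-/- replicate 1, where 0.871% of all genes were called higher. With the Xist covariate 0 were called and with ribosomal RNA genes left out 7, and shares of all genes are not given for those fits. No genotype has 4 or more libraries, so single libraries were not tested for distance from their group.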

How the results depend on the processing

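The 10 calls for Trp53-/- against Trp53+/+ in Pole4-/- cells held under 11 of 12 alternatives with all libraries (8 with an absolute log2 change of at least 1, where Asf1a and Supt16 drop out) and without any one library (10 to 10 genes, median log2 1.45 to 1.65). Counts of the 10 genes called changed elsewhere, and the cause was not tested. For Trp53-/- against Trp53+/+ in Pole4+/+ cells (1) the count was 0 at an adjusted p under 0.01, with an absolute log2 change of at least 1, with library totals alone and with only the libraries compared, 2 with upper-quartile scaling and with a mean of at least 50 counts, 5 by DESeq2 and 10 by voom. For Trp53+/- against Trp53+/+ in Pole4-/- cells (6) it was 0 at both stricter thresholds and with the Xist covariate, and 5 to 9 under the others, with 9 by voom, with library totals alone and with only the libraries compared. For Trp53-/- against Trp53+/- it was, in Pole4-/- cells (10), 5 and 3 at the stricter thresholds and 2 with library totals alone, and in Pole4+/+ cells (0) 10 by voom. For loss of Pole4 in Trp53+/+ cells (6) it was 0 and 1 at the stricter thresholds, 0 with the Xist covariate and 10 with library totals alone and by voom. The Trp53-/- interaction (0) gave 9 by DESeq2 and voom, 5 without a filter, 4 with a mean of at least 50 counts, 3 with ribosomal RNA genes left out and 2 with upper-quartile scaling; the Trp53+/- interaction (0) gave 5 by voom.

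Replicate numbers were not taken to pair the libraries, since nothing in the labels ties them and same-numbered deviations correlated from -0.259 to 0.586 (median 0.098, against -0.06 for other numbers), although 13 of 18 libraries were closest to their own number, a hint from the data and not the design. The replicate block gave 4 for the Trp53-/- interaction, 5 for Trp53+/- against Trp53+/+ in Pole4-/- cells and 7 for loss of Pole4 in Trp53+/+ cells, and changed no other count.

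Without one library, counts ran from 0 to 10 for Trp53-/- against Trp53+/+ in Pole4+/+ cells, 0 to 5 for Trp53+/- in Pole4-/- cells, 5 to 10 and 0 to 9 for Trp53-/- against Trp53+/- in Pole4-/- and Pole4+/+ cells, 0 to 8 for loss of Pole4 in Trp53+/+ cells and 0 to 9 for the Trp53-/- interaction; the other 4 stayed at 0. The libraries are named in the report. Shares of all genes called are not given for every one of these fits, so a changed count alone is not particular to the 10 genes.

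Signs turned only for uncalled values of loss of Pole4 in Trp53-/- cells and of Trp53+/- in Pole4+/+ cells. In the former, library totals alone gave Chaf1a -0.21, Chaf1b -0.31, Asf1a -0.38, Asf1b -0.27, Nasp -0.07, Ssrp1 -0.27, Supt16 -0.19, Uhrf1 -0.28 and Dnmt1 -0.20, upper-quartile scaling gave Asf1a -0.02, and voom gave Chaf1b -0.12, Asf1a -0.20, Asf1b -0.02, Ssrp1 -0.05 and Uhrf1 -0.07. In the latter, Asf1b was at 0.0 with upper-quartile scaling and 0.02 by voom. Without one library, values of the former ran from -0.04 to 0.37 (Chaf1a), -0.16 to 0.28 (Chaf1b), -0.11 to 0.20 (Asf1a), -0.13 to 0.34 (Asf1b), -0.07 to 0.29 (Ssrp1) and -0.11 to 0.30 (Uhrf1), and of the latter from -0.03 to 0.20 (Chaf1a), -0.02 to 0.09 (Asf1a), -0.09 to 0.08 (Asf1b) and -0.03 to 0.23 (Uhrf1). With library totals alone the median of all genes lay over 0.1 from 0 in most comparisons, from -0.435 (loss of Pole4 in Trp53-/- cells) to 0.31 (Trp53+/- interaction), and the share of called genes that were higher went from 57.8% to 97.0% for Trp53+/- against Trp53+/+ and from 52.7% to 6.95% for Trp53-/- against Trp53+/-, both in Pole4-/- cells, and from 32.3% to 2.54% for loss of Pole4 in Trp53+/+ cells.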
